A study of Mus musculus with 12 samples.

Results

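The KIT ligand axis and the genes that mark mast cells were described in trigeminal nerve of mice with and without plexiform neurofibroma. The 10 genes were taken by name out of 47480 gene symbols in the deposited count table. They are Kitl, which encodes KIT ligand (stem cell factor), its receptor gene Kit, the mast cell protease genes Cpa3, Mcpt4, Cma1 and Tpsb2, the IgE receptor subunit genes Fcer1a and Ms4a2, the histamine synthesis gene Hdc and the vesicular monoamine transporter gene Slc18a2. A filter on low counts left 17236 genes, and 8 of the 10 were among them. Fcer1a and Ms4a2 were too low to be tested across genes.

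RNA sequencing covered 12 libraries, all from mice in which both Nf1 alleles were floxed. Normal nerve (6 libraries) was Nf1 flox/flox PostnCre-, and plexiform neurofibroma (6 libraries) was Nf1 flox/flox PostnCre+. Nf1 encodes neurofibromin, a brake on RAS, and the Cre recombinase carries the name of Postn, the periostin gene, whose promoter is active in cells of the Schwann lineage in such mice. The Cre came only with the tumour state, so a Cre effect and a tumour effect cannot be told apart. The labels give no age, sex, litter, drug treatment or batch. They also do not say that each library came from a separate animal. The p-values therefore judge group differences against the spread between these samples, which may not be the spread between animals.

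KIT is a receptor tyrosine kinase that mast cell precursors keep into maturity, and KIT ligand made by stromal cells draws mast cells into tissue and keeps them alive there. Mature mast cells of connective tissue store histamine together with chymases, tryptases and carboxypeptidase A3 in granules, and release them when IgE cross-links its receptor. Mast cells are a known part of neurofibromas, where Nf1-deficient Schwann cells have been described as a source of KIT ligand. Kit and Kitl are also used outside this axis, in melanocytes and in sensory neurons, so bulk RNA does not assign their transcripts to one cell type.

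Total estimated counts ran from 14160025 to 19989351 per library. No pair of libraries agreed within sampling noise (smallest chi-square per degree of freedom 12.6), so all 12 were kept as separate samples. Levels are given as CPM, counts per 1000000 counts of TMM-scaled library size. The deleted gene Nf1 was at 131 CPM ± 35.8 without Cre and at 83.8 CPM ± 8.13 with it (SD, n = 6 each; log2 fold change -0.65, edgeR adjusted p = 0.0179). The groups overlapped: normal nerve replicates 2 and 6, at 85.5 and 90.6 CPM, lay within the tumour range of 69.6 to 93.1 CPM. The Nf1 count covers the whole gene and not the floxed part alone. Defining markers of the labelled tissue were present: the 8 Schwann cell markers summed to between 2540 and 6250 CPM in normal nerve and between 6360 and 11400 CPM in the tumours. The 10 sensory neuron markers summed to between 3050 and 5690 CPM and between 3810 and 5220 CPM, so neuronal transcripts were abundant in every library. Among normal nerve libraries, replicate 6 held central nervous system transcripts (8 markers, 1590 CPM, against 180 to 518 CPM in the tumours), replicate 2 had the lowest sum of 8 fibroblast markers (184 CPM, against up to 1260 CPM), and replicate 3 held skeletal muscle transcripts (8 markers, 419 CPM). Plexiform neurofibroma replicate 1 held more muscle transcripts (1730 CPM).

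Across all genes tested, 3218 of 17236 (18.7%) were called at an adjusted p under 0.05, 1730 of them (10.0%) higher and 1488 (8.63%) lower in the tumours, and 1273 (7.39%) had groups that did not overlap. None of the 8 tested members was called higher or lower by edgeR, and all 10 had overlapping groups. Kit and Slc18a2 were the 2 tested members with an unadjusted p under 0.05. DESeq2, which gave Slc18a2 no adjusted p, called 0 of the 8, with 1 at an unadjusted p under 0.05. limma-voom called 1 of the 8, Kitl, lower, with 2 at an unadjusted p under 0.05. The fitted differences of Kitl and Kit were below 0, and those of the 4 mast cell protease genes were above 0 and about the size of their own error. The absence of a call does not show that levels were equal, and the interval of each difference is given with its gene. In bulk samples, fewer cells of a type and less RNA per cell cannot be told apart.

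**Figure D1:**
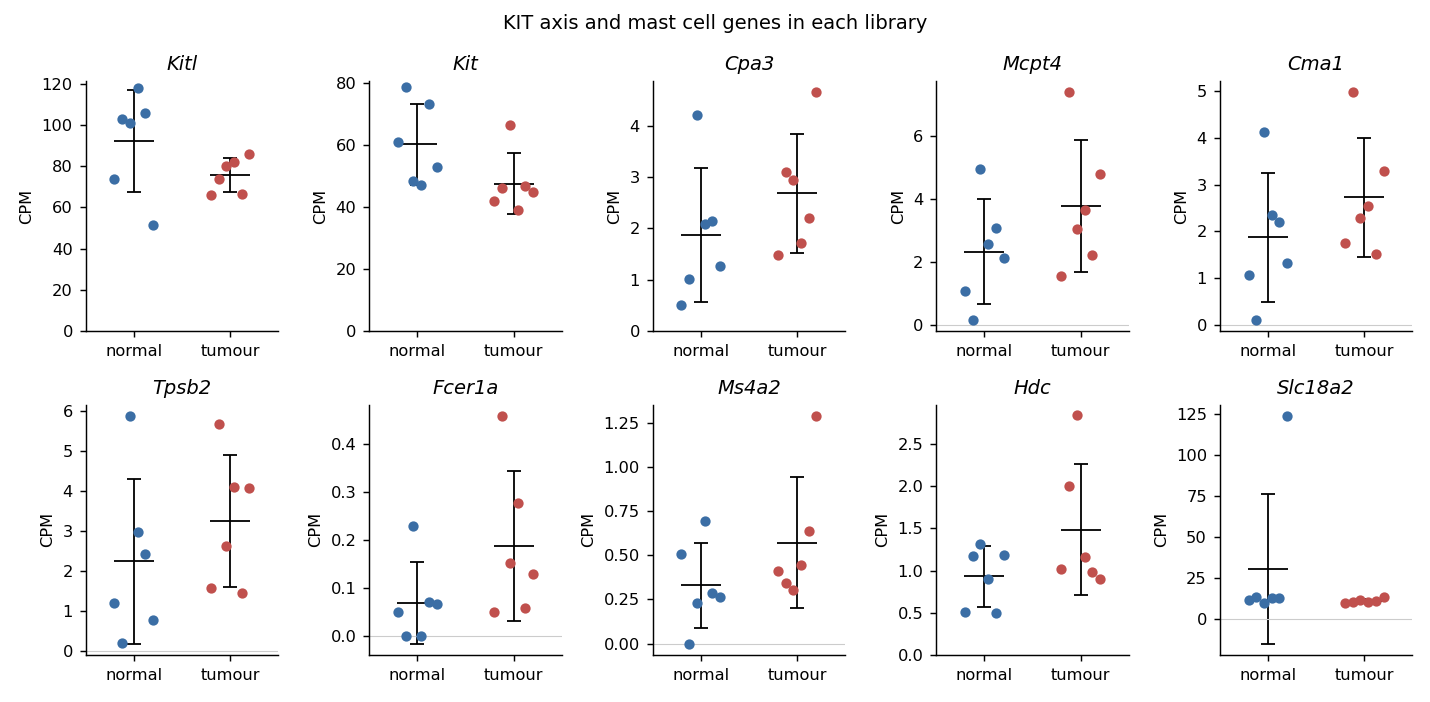
Level of each of the 10 genes in every library (CPM, linear axis), with normal nerve in blue and plexiform neurofibroma in red; lines are the mean and bars the SD of 6 libraries. The groups overlap for all 10 genes, Kitl in the tumours is confined to 66.1 to 85.7 CPM, and 1 normal nerve library has Slc18a2 at 124 CPM.

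Kitl (chromosome 10, 100015630 to 100100416, plus strand, GRCm38) encodes the KIT ligand, which is made as a membrane form and a shed form. Normal nerve libraries measured 74.0, 103, 101, 118, 106 and 51.5 CPM, in the order of replicates 1 to 6. The tumour libraries measured 66.1, 73.8, 80.3, 82.0, 66.5 and 85.7 CPM. All 6 tumours lay below the normal nerve median, but normal nerve replicates 1 and 6 lay below the tumour median as well. Means were 92.4 CPM ± 24.8 and 75.7 CPM ± 8.27 (SD, n = 6 each), so the normal group varied more than the tumours did. The log2 fold change was -0.29 (SE 0.17, 95% interval -0.65 to 0.08, edgeR adjusted p = 0.241).

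Of the 12 fits that each left out 1 library, 1 called Kitl. Without normal nerve replicate 6, the library with the lowest Kitl, the log2 fold change was -0.41 (edgeR adjusted p = 0.0159). In the same fit, 14.2% of all genes were called lower. That library held central nervous system transcripts and had the lowest sensory neuron sum, 3050 CPM. The part of sensory neurons in its Kitl level was not tested. limma-voom, which gave that library the lowest weight of the 12 (0.242), put Kitl at -0.38 (adjusted p = 0.0334, 15.7% of genes lower). Without normal nerve replicates 2 and 6 it was at -0.40 (edgeR adjusted p = 0.0294, with 2286 of 17560 genes lower), and without all 4 libraries with foreign tissue or few fibroblast transcripts at -0.36 (edgeR adjusted p = 0.109). In each of these fits Kitl was lower and not higher in the tumours.

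Kit (chromosome 5, 75574916 to 75656722, plus strand) encodes the receptor. Its 6 values in normal nerve were 61.0, 78.6, 48.4, 47.1, 73.1 and 52.9 CPM. In plexiform neurofibroma they were 42.0, 46.1, 66.5, 39.1, 46.9 and 44.9 CPM. Tumour replicate 3 stood inside the upper part of the normal range, while the other 5 tumours lay under the lowest normal value, 47.1 CPM. Means were 60.2 CPM ± 13.2 and 47.6 CPM ± 9.7 (SD, n = 6 each), with a log2 fold change of -0.34 (SE 0.16, 95% interval -0.67 to -0.01, unadjusted p = 0.0468, edgeR adjusted p = 0.136). Without tumour replicate 3 the log2 fold change was -0.46 (edgeR adjusted p = 0.0404), beside 7.30% of all genes called lower in that fit.

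Kit was at its highest, 78.6 CPM, in normal nerve replicate 2, where the 4 mast cell proteases summed to their lowest level, 1.47 CPM. That library also had the lowest fibroblast sum, 184 CPM, and the highest sensory neuron sum, 5690 CPM. The cell types that hold its Kit transcripts were not tested. Melanocytes are another cell type that uses KIT. Of 9 melanocyte markers, Kit itself included, 5 were tested and 4, Kit among them, had an unadjusted edgeR p under 0.05. The only call, beside 18.7% of all genes tested, was Pmel, a melanosome fibril gene (0.84 CPM ± 0.194 to 1.51 CPM ± 0.449, SD, n = 6 each, log2 fold change 0.84, edgeR adjusted p = 0.0278). Its call was lost when normal nerve replicate 1, 2 or 4 or tumour replicate 2, 4 or 6 was left out (edgeR adjusted p up to 0.0637) and with no filter (0.0609). Tyrp1 and Dct, pigment enzyme genes named after their values were seen, missed the threshold in opposite directions. Tyrp1 was at 7.4 CPM ± 1.33 and 2.5 CPM ± 2.8 (log2 fold change -1.56, edgeR adjusted p = 0.0635), and it passed without plexiform neurofibroma replicate 3 (-2.39, edgeR adjusted p = 0.0044) and in limma-voom (-2.35, adjusted p = 0.00371). Dct was at 0.638 CPM ± 0.939 and 4.1 CPM ± 6.68 (2.66, edgeR adjusted p = 0.0916), with 17.6 CPM in plexiform neurofibroma replicate 1; it was at 1.10 without that library and passed without normal nerve replicate 3 (3.94, edgeR adjusted p = 0.0358). The list, which includes Kit and Mitf, summed to between 71.3 and 97.8 CPM in normal nerve and between 61.3 and 92.5 CPM in the tumours. The part of sensory neurons, whose 10 markers are given above, in the level of Kit was not tested.

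**Figure D2:**
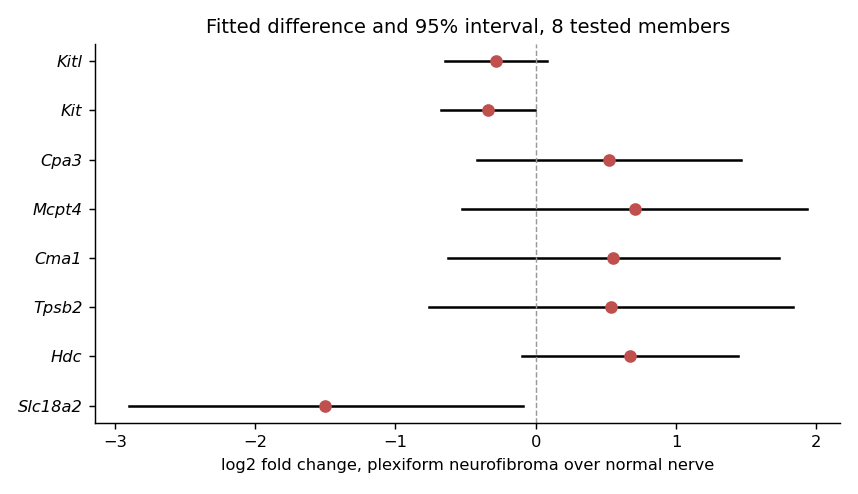
Fitted log2 fold change, plexiform neurofibroma over normal nerve, of the 8 tested genes (points) with 95% intervals (lines). Intervals of Kit and Slc18a2 end just below 0, at -0.01 and -0.09, and those of the proteases reach from below 0 to above 1.

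The protease genes are the most specific mast cell transcripts of the set. Their promoters are shown because Mcpt4 and Cma1 had the highest Pearson r across libraries of any pair of tested members, with Cpa3 less close. By Spearman rho, Cma1 and Tpsb2 were as close (0.95 for both pairs). Each line gives 250 bases before to 50 bases after the start site from RefSeq (GRCm38.p6, minus strand, read 5′ to 3′). Capitals mark GATAA, the core of the GATA motif, on either strand (TTATC is the same motif on the other strand); GATA factors are known to act in mast cells. The windows are chr3:20242132-20242431 for Cpa3, chr14:56062261-56062560 for Mcpt4 and chr14:55944626-55944925 for Cma1.
Cpa3: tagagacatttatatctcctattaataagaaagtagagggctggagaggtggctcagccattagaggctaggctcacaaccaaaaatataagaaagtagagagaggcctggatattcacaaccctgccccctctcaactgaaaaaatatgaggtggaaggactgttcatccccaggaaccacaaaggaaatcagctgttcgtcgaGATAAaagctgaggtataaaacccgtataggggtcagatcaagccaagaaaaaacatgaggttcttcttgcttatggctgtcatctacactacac
Mcpt4: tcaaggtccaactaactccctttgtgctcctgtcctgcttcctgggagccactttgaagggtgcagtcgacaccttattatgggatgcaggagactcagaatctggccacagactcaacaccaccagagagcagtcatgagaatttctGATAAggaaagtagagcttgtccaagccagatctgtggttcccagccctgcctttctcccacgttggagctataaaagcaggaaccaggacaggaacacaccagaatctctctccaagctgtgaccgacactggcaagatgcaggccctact
Cma1: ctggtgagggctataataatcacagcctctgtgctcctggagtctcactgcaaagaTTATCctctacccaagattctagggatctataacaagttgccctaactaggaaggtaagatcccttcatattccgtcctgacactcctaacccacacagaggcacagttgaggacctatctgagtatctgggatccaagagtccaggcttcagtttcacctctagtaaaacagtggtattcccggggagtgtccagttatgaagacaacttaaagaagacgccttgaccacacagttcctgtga

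The motif begins at position -45 from the start site in Cpa3, at -102 in Mcpt4 and at -194 in Cma1. RefSeq windows were at hand for 9 of the 10 genes, all but Tpsb2. Among these, Ms4a2 held GATAA 3 times, Fcer1a and Slc18a2 held it once, and Kitl, Kit and Hdc did not hold it. GATAA on either strand occurs in 25.4% of all 32851 promoter windows of this length. The E-box CATGTG, on either strand, occurs in 14.2% of them and among the members in Fcer1a. Neither match shows binding.

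Cpa3 (chromosome 3, 20215620 to 20242181, minus strand) encodes carboxypeptidase A3, a granule protease of mast cells. It measured 0.51, 1.02, 4.20, 2.09, 2.14 and 1.26 CPM in normal nerve. The tumours had 1.49, 3.09, 2.95, 1.72, 2.21 and 4.66 CPM. Means were 1.87 CPM ± 1.3 and 2.69 CPM ± 1.16 (SD, n = 6 each). The highest normal library, replicate 3, lay above 5 of the 6 tumours. Its log2 fold change was 0.52 (SE 0.44, 95% interval -0.42 to 1.46, edgeR adjusted p = 0.412). A microRNA gene, Mir7007, lies within Cpa3 on the same strand.

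Mcpt4 (chromosome 14, 56059629 to 56062313, minus strand) encodes a chymase of connective tissue mast cells. In normal nerve it was at 1.07, 0.153, 4.95, 2.57, 3.07 and 2.12 CPM. In plexiform neurofibroma it was at 1.54, 7.39, 3.05, 3.66, 2.21 and 4.79 CPM. Normal nerve replicate 2 held 3 counts of it, and the tumours reached both the highest value and values inside the normal range. The log2 fold change was 0.71 (SE 0.57, 95% interval -0.52 to 1.93, edgeR adjusted p = 0.397) between means of 2.32 CPM ± 1.66 and 3.77 CPM ± 2.1 (SD, n = 6 each). Of its 31-base words, 12.2% occur in another gene, mostly Cma2, so a part of its reads may be shared.

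Cma1 (chromosome 14, 55941451 to 55944675, minus strand), the gene of mast cell chymase, lies near Mcpt4 on the same chromosome. Its level was 1.07, 0.102, 4.14, 2.36, 2.21 and 1.33 CPM in normal nerve, replicate 2 holding 2 counts. The level in the tumours was 1.74, 4.98, 2.29, 2.55, 1.51 and 3.30 CPM. Tumour values lay among the normal ones except for replicate 2, the highest of all 12. Its fitted log2 fold change was 0.55 (SE 0.54, 95% interval -0.63 to 1.73, edgeR adjusted p = 0.496), and 10.6% of its 31-base words occur in the annotated gene Gm48934.

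Tpsb2 (chromosome 17, 25366305 to 25369098, plus strand) encodes a mast cell tryptase. Normal nerve held 1.22, 0.203, 5.87, 2.99, 2.42 and 0.80 CPM. Plexiform neurofibroma held 1.59, 5.67, 2.64, 4.10, 1.46 and 4.08 CPM. Here the highest of all 12 values was a normal library, replicate 3. For Tpsb2 the log2 fold change was 0.53 (SE 0.60, 95% interval -0.76 to 1.83, edgeR adjusted p = 0.551). The related tryptase Tpsab1, chosen after its values were seen, shares 0.557% of Tpsb2's 31-base words and ran from 0 to 2.65 CPM in normal nerve and from 0.609 to 6.53 CPM in the tumours (log2 fold change 1.72, edgeR adjusted p = 0.213). Leaving out plexiform neurofibroma replicate 2 gave Tpsab1 a log2 fold change of 1.03, and leaving out normal nerve replicate 3 gave 3.03 (edgeR adjusted p = 0.05).

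Single libraries moved these 4 differences widely. Without normal nerve replicate 3, which held muscle transcripts, the log2 fold changes were 0.95 for Cpa3, 1.09 for Mcpt4, 0.97 for Cma1 and 1.11 for Tpsb2 (lowest edgeR adjusted p = 0.114). Without normal nerve replicates 2 and 6 they were 0.26, 0.37, 0.16 and 0.06 in the same order. Without normal nerve replicate 3 and plexiform neurofibroma replicate 1, both with muscle transcripts, they were 1.08, 1.26, 1.08 and 1.26 (lowest edgeR adjusted p = 0.0927, for Cpa3). Leaving out plexiform neurofibroma replicate 2 gave 0.40 for Mcpt4, 0.29 for Cma1 and 0.30 for Tpsb2, and leaving out replicate 6 gave 0.30 for Cpa3. All stayed above 0 and none was called.

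**Figure D3:**
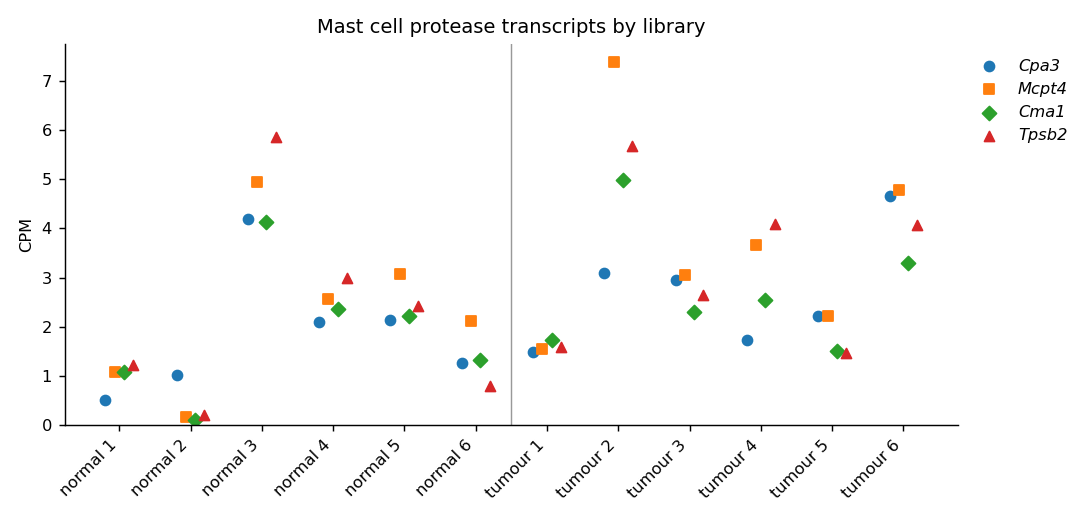
Level of Cpa3, Mcpt4, Cma1 and Tpsb2 in each of the 12 libraries (CPM, linear axis). The 4 genes are high together in the third normal nerve library and in tumours 2 and 6; Mcpt4, Cma1 and Tpsb2 are at 0.102 to 0.203 CPM in normal nerve replicate 2, where Cpa3 is at 1.02 CPM.

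Summed over the 4 proteases, normal nerve held 3.86, 1.47, 19.2, 10, 9.84 and 5.51 CPM. The sums in plexiform neurofibroma were 6.35, 21.1, 10.9, 12, 7.39 and 16.8 CPM. The lowest 3 sums of all 12 were normal libraries, and the second highest was a normal library too. Replicate 2, the lowest, was also the normal library with the lowest fibroblast sum, 184 CPM, and with Dcn, a connective tissue proteoglycan, at 104 CPM against 466 to 725 CPM in the other normal libraries. The fibroblast list summed to between 1470 and 3450 CPM in the tumours, with none of its markers at 0 counts in any library. Of its 8 markers, 5 were called higher (Col3a1, Col1a2, Lum, Col1a1 and Dcn), beside 10.0% of all genes tested. Col1a1 was not called without normal nerve replicate 4 or 5 or tumour replicate 2, 4 or 6 (edgeR adjusted p up to 0.062), nor Dcn without normal nerve replicate 5 or tumour replicate 2, 4 or 6 (up to 0.0664), and with no filter Col1a1, Dcn and Lum all missed the threshold (0.072, 0.0731 and 0.0644). The part of connective tissue content in the protease levels was not tested.

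After removal of each group's mean, log2 levels of Mcpt4 and Cma1 had a Pearson r of 0.97 over the 12 libraries (Spearman rho 0.95, r = 0.94 without the 2 libraries farthest from the median of Mcpt4). Cma1 and Tpsb2 had r = 0.95 (rho 0.95, 0.91 without 2 libraries), and Mcpt4 and Tpsb2 had r = 0.92 (rho 0.85, 0.82 without 2 libraries). Cpa3 had r = 0.74, 0.71 and 0.72 with Mcpt4, Cma1 and Tpsb2, which ranked 44, 71 and 66 among 17235 genes in likeness to Cpa3. Hdc had r between 0.1 and 0.29 with the 4 proteases. These values describe likeness, without a test, and the points share library, depth and tissue content. Without normal nerve replicate 2, Mcpt4 and Cma1 had r = 0.95, Cma1 and Tpsb2 had r = 0.95, and Mcpt4 and Tpsb2 had r = 0.87.

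Apart from 1 clone-named transcript, the genes most like Cpa3 by the same measure were Trmt61a, Klhl34, Bpifb1 and Kbtbd11 (r = 0.84 each), out of 14477 ranked. For Kitl they were Tdrd3 and Ifngr2 (0.98 each) and Med14 (0.96), which without normal nerve replicate 6 stood at 0.95, 0.94 and 0.9. For Kit they were Muc2 and Larp4b (0.94 each) and Cry2 (0.92). No mast cell gene of the set was among the 10 genes most like Kit or Kitl.

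Relations between Kitl, Kit and Cpa3 were tested within each group of 6 libraries by exact permutation over pairings, 6 relations in all. None passed (lowest adjusted p = 0.723 for Pearson's r, exact permutation). Kitl and Cpa3 had r = 0.47 in normal nerve (exact p = 0.376, rho 0.37) and r = 0.6 in the tumours (exact p = 0.212, rho 0.6). Without the 2 libraries farthest from the median of Kitl, r was -0.11 and 0.21. Kit and Cpa3 had r = -0.45 in normal nerve (exact p = 0.374, rho -0.43) and 0.38 in the tumours (exact p = 0.482, rho 0.43), and -0.88 and 0.47 without the 2 farthest. Kitl and Kit had r = 0.13 and 0.16 (exact p = 0.838 each, rho -0.09 and -0.14), and -0.44 and -0.13 without the 2 farthest. A difference in relation between the groups was not tested.

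**Figure D4:**
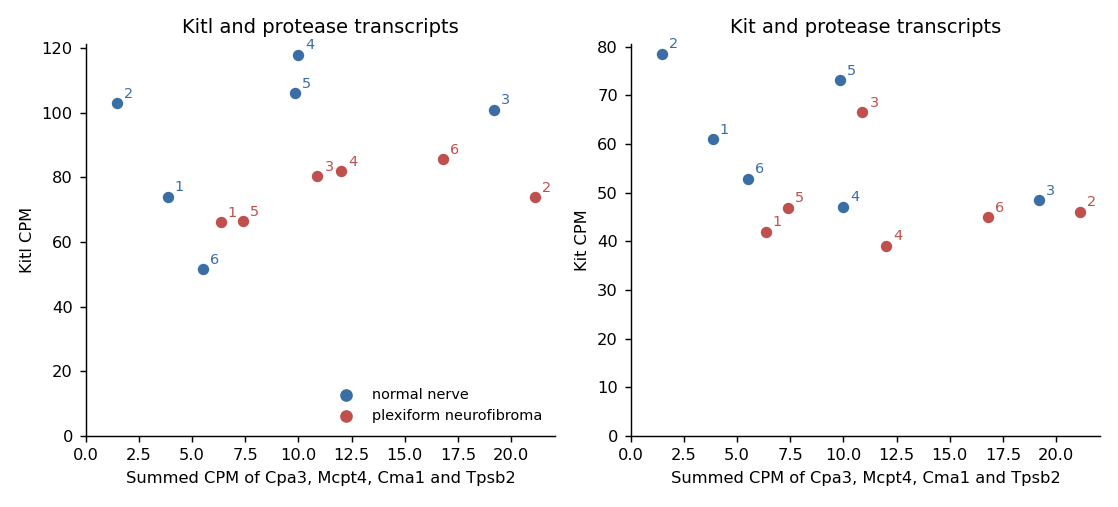
Kitl (left) and Kit (right) against the summed level of Cpa3, Mcpt4, Cma1 and Tpsb2 in each library (CPM, linear axes; numbers are replicates, blue normal nerve, red plexiform neurofibroma). Kit is highest, 78.6 CPM, in the normal nerve library with the lowest protease sum, 1.47 CPM, and all 6 tumours lie below the Kitl level of normal nerve replicates 2 to 5 (101 to 118 CPM).

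Fcer1a (chromosome 1, 173221284 to 173227214, minus strand) encodes the alpha subunit of the high-affinity IgE receptor, which binds IgE. Its estimated counts were 1, 0, 4, 0, 1 and 1 in normal nerve. The tumours held 1, 8, 3, 5, 1 and 2 counts. With 8 counts at most, the gene was near the limit of detection, and the 2 zeros allow up to 0.153 and 0.209 CPM, the level of 3 counts in those libraries. The difference in mean log2(CPM + 0.5) was 0.26 (two-sided exact permutation p = 0.136; the smallest p possible is 0.00216), and the scale understates the change of so low a gene. Without normal nerve replicate 3 it was 0.33 (exact permutation p = 0.0325, unadjusted).

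Ms4a2 (chromosome 19, 11615523 to 11623719, minus strand) encodes the beta subunit, which amplifies the receptor's signal. It had 10, 0, 4, 10, 4 and 4 estimated counts in normal nerve. In plexiform neurofibroma it had 8, 6, 6, 8, 10.72 and 19.86. All 6 tumours held counts of it, as did 5 of the normal libraries, and the ranges overlapped. The difference in mean log2(CPM + 0.5) was 0.36 (two-sided exact permutation p = 0.186), and 3.96% of its 31-base words occur in other genes, mostly Ms4a4b.

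Hdc (chromosome 2, 126593667 to 126619299, minus strand) encodes histidine decarboxylase, which makes histamine. Normal nerve was at 0.507, 1.17, 1.32, 0.904, 0.499 and 1.19 CPM. The tumours were at 1.02, 2, 2.85, 1.16, 0.989 and 0.906 CPM. Only tumour replicates 2 and 3 exceeded the normal range. Its log2 fold change was 0.67 (SE 0.36, 95% interval -0.10 to 1.44, edgeR adjusted p = 0.194), and 0.38 without plexiform neurofibroma replicate 3 (edgeR adjusted p = 0.433). Its highest library, replicate 3 at 2.85 CPM, was not the one with the highest proteases.

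Slc18a2 (chromosome 19, 59260896 to 59296012, plus strand) encodes VMAT2, which loads histamine into granules in mast cells and dopamine, noradrenaline and serotonin into vesicles in neurons. Levels in normal nerve were 11.1, 13.3, 9.61, 12.5, 12.5 and 124 CPM. Levels in plexiform neurofibroma were 9.48, 10.1, 11.2, 10.3, 10.6 and 12.9 CPM. A single library, normal nerve replicate 6, made up the gap between the means of 30.4 CPM ± 45.7 and 10.8 CPM ± 1.18 (SD, n = 6 each). The log2 fold change was -1.50 (SE 0.65, 95% interval -2.90 to -0.09, unadjusted p = 0.0387, edgeR adjusted p = 0.12) and -0.13 without that library (edgeR adjusted p = 0.383). The annotated gene Gm29261 overlaps Slc18a2 on the other strand.

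In normal nerve replicate 6, genes of monoamine neurons stood with Slc18a2. Th, tyrosine hydroxylase, was at 164 CPM there and at 4.78 to 9.84 CPM in the other 11 libraries. The dopamine transporter gene Slc6a3 was at 128 CPM there, against 1 count at most elsewhere. Ddc was at 98.3 CPM (at most 3.26 CPM elsewhere) and Tph2, the neuronal serotonin synthesis gene, at 25.2 CPM (at most 1.55 CPM). Th, Slc6a3 and Tph2 were chosen after their values were seen, as was Cyp11a1. The 11 monoaminergic neuron markers summed to 555 CPM there and to between 21.4 and 31 CPM in the others, while Hdc, at 1.19 CPM, and the protease sum, at 5.51 CPM, lay within the range of the other normal libraries. Cyp11a1, another gene of the mast cell list, was at its highest there, 0.797 CPM. The cell types that hold the Slc18a2 transcripts of this library were not tested.

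**Figure D5:**
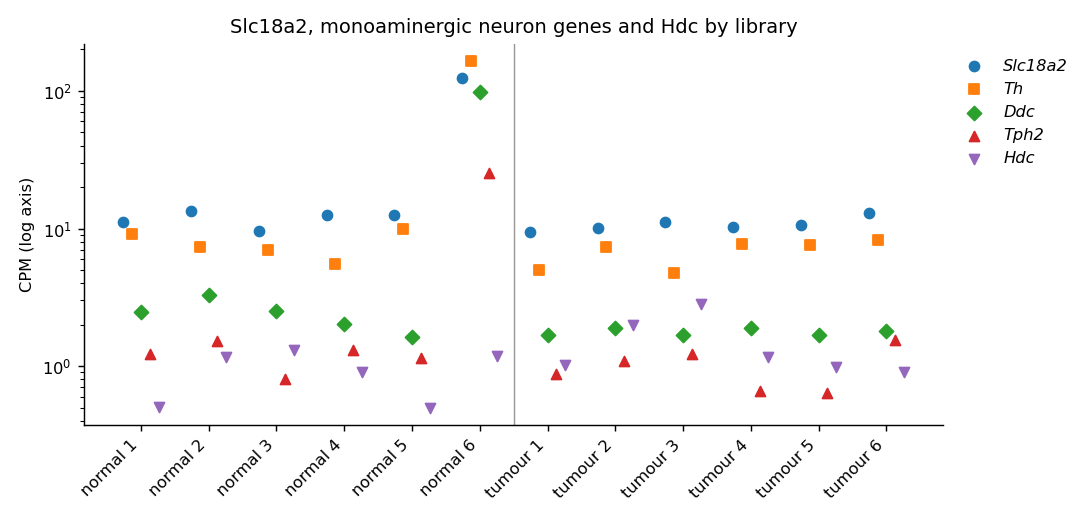
Slc18a2, the monoamine neuron genes Th, Ddc and Tph2, and the histamine synthesis gene Hdc in each library (CPM, log axis). In normal nerve replicate 6, Slc18a2, Th, Ddc and Tph2 are at 124, 164, 98.3 and 25.2 CPM, and Hdc is at 1.19 CPM, inside its range elsewhere.

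Levels of different genes were compared per kilobase of longest transcript. In normal nerve, mean levels per kilobase were 16.4 CPM for Kitl, 11.5 for Kit, 2.1 for Mcpt4, 1.75 for Tpsb2, 1.71 for Cma1, 1.29 for Cpa3, 0.207 for Hdc, 0.138 for Ms4a2 and 0.0699 for Fcer1a. In the tumours the same genes were at 13.4, 9.08, 3.4, 2.53, 2.5, 1.85, 0.33, 0.24 and 0.188 CPM per kilobase. The order was the same in both groups. Among Mcpt4, Tpsb2, Cma1 and Cpa3, each differed from the next of these genes in the order by less than their spread between libraries. Slc18a2 stood at 6.93 in normal nerve, set by 1 library, and at 2.45 in the tumours. In both groups the ligand and the receptor stood above every mast cell gene of the set per kilobase.

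Other mast cell genes gave little more. Of 22 in the list, 12 were tested, 1 was higher and 1 lower, about the shares of all genes tested (10.0% and 8.63%). Their median log2 fold change was 0.23 beside -0.02 for all genes tested. Fcer1g, the gamma chain of the IgE receptor and of Fc receptors of macrophages, rose from 4.65 CPM ± 2.4 to 9.96 CPM ± 3.4 (SD over 6 libraries each, log2 fold change 1.09, edgeR adjusted p = 0.0388). Its call was lost when normal nerve replicate 1, 2, 4 or 5 or tumour replicate 2, 4 or 6 was left out (edgeR adjusted p up to 0.0866). Of 9 macrophage markers, Aif1, Cx3cr1 and Csf1r were called higher, beside 10.0% of all genes tested, and none had 0 counts. The 9 summed to between 51.9 and 245 CPM in normal nerve and between 164 and 355 CPM in the tumours. Their part in the level of Fcer1g was not tested. Aif1 was called whichever library was left out, Cx3cr1 only without normal nerve replicate 6 or tumour replicate 3 or 5 (edgeR adjusted p up to 0.0834 otherwise), and Csf1r only without normal nerve replicate 6 or tumour replicate 3 (up to 0.105 otherwise). With no filter, Cx3cr1 and Csf1r missed the threshold (edgeR adjusted p = 0.0879 and 0.0913). Rab27b, which docks secretory granules and is also used in neurons, fell from 68.7 CPM ± 6.68 to 52.6 CPM ± 9.69 (SD over 6 libraries each, log2 fold change -0.39, edgeR adjusted p = 0.0379). That call was lost when any of normal nerve replicates 1 to 5 or tumour replicates 2 to 4 was left out (edgeR adjusted p up to 0.0889). Neither gene was called with no filter (edgeR adjusted p = 0.0633 for Fcer1g and 0.0625 for Rab27b) or after the transcript length correction (0.0674 and 0.0986).

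Proteases of other kinds of mast cell and of basophils were at or near 0. Mcpt1 and Mcpt2, proteases of mucosal mast cells, and Mcpt9 had 0 counts in all 12 libraries, which allows up to 0.214 CPM in the shallowest. Mcpt8, a basophil protease, had 1 count in each of plexiform neurofibroma replicates 3 and 5 and 0 elsewhere. Of 8 basophil markers 2 were tested and 0 were called by edgeR, beside 18.7% of all genes tested. DESeq2 and limma-voom also called 0, and 0 had an unadjusted p under 0.05 with any of these tools. The lowest p was that of Itga2 (log2 fold change 0.50, edgeR adjusted p = 0.366). The list summed to between 6.84 and 13.7 CPM in normal nerve and between 9.6 and 16 CPM in the tumours. Of that list, Itga2 was at 4.42 and 6.24 CPM and Il4 at 5.98 and 6.2 CPM (means of normal nerve and tumours). Per kilobase of longest transcript, Itga2 was at 0.621 and 0.878 CPM, below every mast cell protease of the set. Il4, at 9.89 and 10.3 CPM per kilobase, was above them. Il4 was named after its values were seen. Mrgprb2, a receptor of connective tissue mast cells, was at 0 to 0.143 CPM in normal nerve and at 0.116 to 0.356 CPM in the tumours.

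Of 25 signalling genes downstream of KIT and the IgE receptor, all tested, 5 were higher and 2 lower, beside 10.0% and 8.63% of all genes tested, so that the lower count lay at the background. They had a median log2 fold change of 0.17. Stat5a, a transcription factor that KIT activates, rose from 8.12 CPM ± 1.99 to 13.4 CPM ± 1.9 (log2 fold change 0.72, edgeR adjusted p = 0.0115). Lyn, a kinase that starts IgE receptor signalling, rose from 7.5 CPM ± 1.84 to 11.7 CPM ± 1.49 without overlap of the groups (0.64, edgeR adjusted p = 0.018). Sh2b3, which encodes LNK, an adaptor that restrains KIT signalling, rose from 16 CPM ± 2.75 to 22.4 CPM ± 3.83 (0.49, edgeR adjusted p = 0.0245); its call was lost when normal nerve replicate 5 or tumour replicate 2 or 4 was left out (edgeR adjusted p up to 0.0621). The adaptor Grb2 fell from 120 CPM ± 5.15 to 99.4 CPM ± 9.1 (-0.27, edgeR adjusted p = 0.0156; 0.0556 with no filter; SD, n = 6 each throughout).

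The other 3 called genes of this list, named after their values were seen, were the kinase Btk (log2 fold change 1.05, edgeR adjusted p = 0.0429), the adaptor Lcp2 (0.54, adjusted p = 0.0342) and the RAS exchange factor Sos1 (-0.42, adjusted p = 0.0297). The call of Btk was lost when normal nerve replicate 1, 2, 4 or 5 or tumour replicate 1, 2, 4 or 6 was left out (edgeR adjusted p up to 0.0919). That of Lcp2 was lost without normal nerve replicate 1, 3 or 5 or tumour replicate 2, 4 or 6 (up to 0.084), and that of Sos1 without normal nerve replicate 3, 4 or 5 or tumour replicate 2, 4 or 6 (up to 0.0726). Without a filter, Btk and Sos1 missed the threshold too (edgeR adjusted p = 0.068 and 0.053), as they did after the length correction (0.0547 and 0.0815). Btk, Lcp2 and Lyn are also expressed in macrophages, whose marker sums are given above, and the part of macrophages in their levels was not tested.

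KIT belongs to the class III receptor tyrosine kinases, with the CSF1, FLT3 and PDGF receptors. Of 13 genes for these receptors and their ligands, Kit and Kitl included, 6 were higher and 1 lower, beside 10.0% and 8.63% of all genes tested, with a median log2 fold change of 0.53. One of the 6, Csf1r, was called in 2 of the 12 fits that leave out a library. Pdgfa rose from 45.1 CPM ± 6.56 to 76.1 CPM ± 16.6 (log2 fold change 0.76, edgeR adjusted p = 0.00463) and Il34, a ligand of the CSF1 receptor, from 18.8 CPM ± 3.37 to 30.8 CPM ± 4.62 (0.72, edgeR adjusted p = 0.00478; SD, n = 6 each), both without overlap of the groups. Pdgfb rose by 0.70 log2 (edgeR adjusted p = 0.0126). Flt3 fell from 28.2 CPM ± 4.38 to 21.8 CPM ± 2.03 (log2 fold change -0.37, edgeR adjusted p = 0.0265); its call was lost when normal nerve replicate 4 or 5 or tumour replicate 1, 2, 4 or 6 was left out (edgeR adjusted p up to 0.0659) and with no filter (0.0557). The difference between these genes and the KIT pair was not itself tested.

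Of 13 other factors that grow or attract mast cells, 9 were tested, 2 were higher and 0 lower, beside 10.0% and 8.63% of all genes tested. Their median log2 fold change was 0.76. Both called genes are chemokines. Ccl11, eotaxin, rose from 9.35 CPM ± 4.63 to 64.9 CPM ± 23.8 (SD, n = 6 each, log2 fold change 2.80, edgeR adjusted p = 0.00283), with normal nerve at 1.37 to 13.6 CPM and the tumours at 30 to 92.7 CPM. Ccl2 rose from 1.08 CPM ± 0.507 to 4.73 CPM ± 1.78 (SD, n = 6 each, log2 fold change 2.13, edgeR adjusted p = 0.00407). Neither gene's groups overlapped, and both kept their call whichever single library was left out. Il3 and Il9, T cell cytokines that act on mast cells, had 0 counts in every library. Il33, an alarmin for mast cells, was at 22.8 CPM ± 16.8 and 40.8 CPM ± 10.4 (SD, n = 6 each, log2 fold change 0.84, edgeR adjusted p = 0.181); it was named after its values were seen.

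Of 9 genes that handle or sense histamine, 7 were tested and 0 were called by edgeR, beside 18.7% of all genes tested. Their median log2 fold change was -0.29, beside -0.02 for all genes tested. At an unadjusted p under 0.05 only Slc18a2 of these passed. limma-voom called 0 of the 7 as well, with 0 at an unadjusted p under 0.05. DESeq2 also called 0 but gave Slc18a2 no adjusted p. The 1 gene with a DESeq2 unadjusted p under 0.05 was not Slc18a2.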

How the data were processed

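RNA was measured in trigeminal nerve, 6 normal nerve and 6 plexiform neurofibroma samples. Per the labels' protocols, total RNA was column-purified and a stranded mRNA kit was used, but a TruSeq kit is named as well, so the kit is uncertain. STAR 2.4.2a, Salmon 0.60, FastQC and DESeq2 are listed, with build mm10 and without a role, per the submitters' processing notes. Neither the annotation nor the use of strand is stated in those sources, so antisense overlaps cannot be told apart. The authors deposited estimated counts per gene symbol with no normalization; 84.1% to 86.5% of a library's values were whole within 0.001. Such estimates share reads among near-identical genes.

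Counts were rounded and tested with edgeR 4.0.16 (R 4.3.3): TMM factors, filterByExpr, robust quasi-likelihood F test, Benjamini-Hochberg adjustment over 17236 genes, called at 0.05. Adjusted p-values come from edgeR where no other tool is given. Members below the filter were compared by an exact permutation test over 924 assignments on log2(CPM + 0.5), where 0.5 is the pseudocount. Alternatives tried were other factors (RLE, upper-quartile), no filter, CPM above 1 in at least 6 libraries, DESeq2 1.42.0, limma-voom 3.58.1 with sample weights, a transcript length correction (lowess, span 0.3) and each library left out. Fits without libraries that held other tissue were chosen after seeing the data. The test was tested on simulated data.

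Genes were matched to GENCODE vM21 on GRCm38 (45187 symbols matched), and promoters to RefSeq. The members and the 18 gene lists, 2 of which hold the members themselves, were chosen with earlier results of these data known. All members are named; of each other list, up to 4 called genes by p, or the 1 with the smallest p. Replicate numbers follow accession order and pair nothing.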

Additional observations from a re-analysis of the deposited data

Results flagged for a closer look

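Of 88 groups of 6 libraries examined, 9 held a library far from the rest. The count does not cover every gene named above. Th, Slc6a3, Tph2 and Dct, whose outlying libraries are given above, are not in it. A chance rate of about 1 in 20 would hold for independent groups. These groups share the same 12 libraries and include genes named after their values were seen, so the count is no test against that rate. Kit was at 66.5 CPM in plexiform neurofibroma replicate 3, next to 46.9 CPM. Fcer1a was at 0.23 CPM in normal nerve replicate 3, next to 0.0713 CPM, a matter of 4 counts against 1. Ms4a2 was at 1.29 CPM in plexiform neurofibroma replicate 6, next to 0.64 CPM. Slc18a2 was at 124 CPM in normal nerve replicate 6, next to 13.3 CPM, and Ddc was at 98.3 CPM in the same library, next to 3.26 CPM. Cx3cr1, a gene of macrophages and microglia, was at 30.4 CPM there, next to 13.1 CPM. Ttn, a skeletal muscle gene, was at 62.6 CPM in normal nerve replicate 3 (next 12.5 CPM) and at 276 CPM in plexiform neurofibroma replicate 1 (next 5.49 CPM). Tpsab1 was at 2.65 CPM in normal nerve replicate 3, next to 0.863 CPM.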

How the results depend on the processing

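No member changed direction under any alternative that gave it a value, and of the tested members none was called higher. Tested members called lower numbered 1 in each of 4 settings: limma-voom (Kitl, -0.377, adjusted p = 0.0334), without normal nerve replicate 6 (Kitl, -0.408, edgeR adjusted p = 0.0159), without plexiform neurofibroma replicate 3 (Kit, -0.459, edgeR adjusted p = 0.0404), and without normal nerve replicates 2 and 6 (Kitl, -0.402, edgeR adjusted p = 0.0294). Fcer1a, at 0.255 in the main test, passed without normal nerve replicate 3 (0.329, exact permutation p = 0.0325) and without that library and plexiform neurofibroma replicate 1 (0.388, exact permutation p = 0.0238). Leaving out each library in turn gave -0.408 to -0.202 for Kitl, -0.459 to -0.24 for Kit, 0.299 to 0.954 for Cpa3, 0.397 to 1.09 for Mcpt4, 0.29 to 0.973 for Cma1, 0.29 to 1.11 for Tpsb2, 0.38 to 0.803 for Hdc, -1.67 to -0.133 for Slc18a2, 0.154 to 0.329 for Fcer1a and 0.202 to 0.478 for Ms4a2, and 0 to 1 member lower. Slc18a2 was at -0.232 in limma-voom, and DESeq2 gave it no adjusted p. Over all genes, leaving out a library gave 1092 to 2544 higher and 801 to 2487 lower genes, limma-voom 2864 higher and 2701 lower, and no filter 902 lower. Of 25 KIT and IgE receptor signalling genes, DESeq2 and limma-voom each called 12, against 7 by edgeR. Of 9 growth and recruitment factors limma-voom called 5, against 2. Both tools also called more of all genes than edgeR did (1730 higher and 1488 lower of 17236). limma-voom called 2864 higher and 2701 lower of the same 17236. DESeq2 called 2289 higher and 1959 lower among 32206 genes with any count, not all of which had an adjusted p. Fits without the libraries with muscle transcripts did not call Grb2, Lcp2, Sos1, Flt3 or Rab27b. The causes were not tested. With counts of 20 or fewer, Fcer1a and Ms4a2 are limited by depth. The proteases, at 2 to 129 counts, are limited by the spread between libraries as well.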
